A study of Rattus norvegicus with 18 samples.

Results

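The miR-106b/93/25 cluster is a short stretch of rat chromosome 12 that carries 3 miRNA genes, Mir106b, Mir93 and Mir25, inside the span of the protein-coding gene Mcm7. Its members were chosen by name, as both mature arms of each gene (rno-miR-106b-5p, rno-miR-106b-3p, rno-miR-93-5p, rno-miR-93-3p, rno-miR-25-3p and rno-miR-25-5p). These are 6 of the 753 miRNAs counted. A miRNA was tested where 6 or more of the 18 libraries had over 10 counts of it, which left 373 miRNAs with all 6 members among them. No expression threshold entered the choice, but the cluster was picked with earlier results of these data known, so the tests below describe its members and are not independent support for any pattern.

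Small RNA was sequenced from the C6-8 dorsal root ganglia (DRG) of 18 adult Lister hooded rats, 6 in each of 3 groups, to ask how corticospinal injury and neurotrophin-3 change these ganglia. The naïve rats were unoperated and received no vector. The bPYX+GFP rats had a bilateral pyramidotomy (bPYX), which cuts the corticospinal tracts in the medulla, followed a day later by injection of AAV1 carrying green fluorescent protein under the CMV promoter into the forelimb flexors of one side. The bPYX+NT3 rats had the same injury and the same vector type, here encoding human neurotrophin-3 (NT3). Both injured groups were sampled 10 weeks after injury, and the ganglia of the treated side were combined within each rat. Since all injured rats also carried a vector, injury and vector cannot be told apart against naïve rats. The CMV promoter is not limited to one cell type.

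MiRNAs are cut from hairpin precursors, and 1 arm of the hairpin is usually loaded into the silencing complex while the other is degraded. Bases 2 to 8 of the loaded arm, the seed, choose the mRNAs that are repressed. The miR-106b/93/25 cluster is a paralog of the miR-17/92 and miR-106a to miR-363 clusters and shares seeds with them. These families are best known for repressing inhibitors of the cell cycle and promoters of apoptosis. Mcm7, the host, encodes a subunit of the helicase that opens DNA for replication. The mature sequences from RefSeq (build GRCr8, 5′ to 3′) are shown because they sort the members into 2 seed families and 3 arms with a seed of their own. Capitals mark the seed.
rno-miR-106b-5p: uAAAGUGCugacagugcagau
rno-miR-93-5p: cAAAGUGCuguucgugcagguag
rno-miR-25-3p: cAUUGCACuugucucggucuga
rno-miR-106b-3p: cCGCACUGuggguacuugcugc
rno-miR-93-3p: aCUGCUGAgcuagcacuucccga
rno-miR-25-5p: aGGCGGAGacacgggcaauugc

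The 5p arms of miR-106b and miR-93 carried the same seed, AAAGUGC, and matched at 16 of the 21 positions of miR-106b-5p in an ungapped alignment. MiR-25-3p carried the seed AUUGCAC. The 3 remaining arms had seeds found in no other mature rat miRNA of the table. On the minus strand, miR-106b-5p lies at chr12:22157103-22157123 and miR-106b-3p at chr12:22157062-22157083. MiR-93-5p lies at chr12:22156894-22156916 and miR-93-3p at chr12:22156856-22156878. MiR-25-5p lies at chr12:22156690-22156711 and miR-25-3p at chr12:22156652-22156673. The 6 arms thus fit within 472 bases, and all 3 genes lie on the strand of Mcm7. Each arm has 1 precursor gene, so reads of the members were not split between genomic copies. These positions come from RefSeq, while the counts were made on the older build Rnor_5.0.

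Relatives outside the cluster with the first seed were rno-miR-17-5p, rno-miR-20a-5p and rno-miR-20b-5p. Relatives of miR-25-3p were rno-miR-92a-3p, rno-miR-92b-3p, rno-miR-363-3p and rno-miR-32-5p. For each seed, the relatives that the later comparison turns on are printed beside the members above, again with the seed in capitals.
rno-miR-20a-5p: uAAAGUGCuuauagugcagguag
rno-miR-20b-5p: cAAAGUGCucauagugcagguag
rno-miR-92a-3p: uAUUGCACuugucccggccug
rno-miR-363-3p: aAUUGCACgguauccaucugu

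The precursor hairpins of Mir93 (chr12:22156844-22156930, minus strand) and Mir25 (chr12:22156641-22156724, minus strand) are shown because the dominant arm sits on opposite sides of the loop in these neighbours. Capitals mark the 2 mature arms, the 5p arm first.
Mir93: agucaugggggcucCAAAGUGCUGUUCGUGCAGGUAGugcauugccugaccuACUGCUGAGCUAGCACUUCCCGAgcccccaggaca
Mir25: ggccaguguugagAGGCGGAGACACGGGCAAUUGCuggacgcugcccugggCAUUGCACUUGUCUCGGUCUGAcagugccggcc

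The libraries held 3.88 to 6.92 M miRNA counts, with bPYX+GFP replicate 3 the deepest. Levels are given as CPM, the counts for each 1 M miRNA counts, after TMM scaling, a correction for differences in composition between libraries. TMM factors ran from 0.909 in bPYX+NT3 replicate 4 to 1.14 in bPYX+NT3 replicate 3. The sensory neuron miRNAs rno-miR-182 and rno-miR-96-5p were abundant in all libraries, but rno-miR-183-5p, of the same cluster, was listed at 0 in all 18. Summed levels of the marker lists for sensory neurons, red and white blood cells, muscle, glia, endothelium and fibroblasts overlapped between all groups. Glia and endothelium rested on 1 tested marker each (of 3 and 2), and muscle and sensory neurons on 2 of 4, the rest being at 0 apart from rno-miR-124-3p with 0 to 7 counts. The markers at 0 in all 18 libraries beside miR-183-5p were rno-miR-1-3p, rno-miR-133a-3p, rno-miR-338-3p, rno-miR-219a-2-3p and rno-miR-126a-5p. The red blood cell list, for example, summed to 125 to 566 CPM in naïve rats, 205 to 692 CPM after injury with GFP and 264 to 1098 CPM after injury with NT3. Such sums follow their most abundant markers, and single markers had fold changes as large as those of members. The 3 red blood cell markers miR-144-3p, miR-144-5p and miR-451-5p had log2 fold changes of 0.70, 0.39 and 0.33 in bPYX+GFP against naïve rats. In bPYX+NT3 against naïve rats they were 0.49, 0.60 and 0.39. None of these had an unadjusted p under 0.05. Of 26 markers, 19 were tested, and 3 had an unadjusted p under 0.05 in bPYX+GFP against naïve rats, beside 79 of all 373 miRNAs (21.2%), and none passed after adjustment. The sensory neuron miRNA miR-182 had a log2 fold change of 0.20 ± 0.08 (adjusted p = 0.173, 6 of 6 libraries above the naïve mean). The arm rno-miR-183-3p, of the same cluster but not on the list, came to 0.23 ± 0.10 (unadjusted p under 0.05, adjusted p = 0.222, 6 of 6 above). MiR-145-5p of smooth muscle came to -0.50 ± 0.14 (adjusted p = 0.0742, 0 of 6 above) and the fibroblast miR-199a-5p to -0.21 ± 0.10 (adjusted p = 0.232, 0 of 6 above). The rest of their list stood near 0, with miR-143-3p at 0.01, miR-199a-3p at -0.01 and miR-214-3p at -0.04, and the sensory neuron miR-96-5p was at 0.07. In bPYX+NT3 against bPYX+GFP rats miR-145-5p alone had an unadjusted p under 0.05 (0.40 ± 0.16, adjusted p = 0.442), with miR-143-3p at 0.00. Against naïve rats miR-182 alone of the listed markers did in bPYX+NT3 rats (0.19 ± 0.09, adjusted p = 0.349), with miR-96-5p at -0.04. There miR-183-3p came to 0.25 ± 0.12 (adjusted p = 0.349, 6 of 6 above the naïve mean). Rno-miR-1b, a miR-1 by name but not on the muscle list, came to 0.30 ± 0.10 (unadjusted p under 0.05, adjusted p = 0.247, 5 of 6 above). Its value in bPYX+GFP against naïve rats was 0.13 ± 0.07 (adjusted p = 0.313). The part of these markers in the results below was not tested. The ganglia hold neurons, glia, vessels and connective tissue, and in such bulk samples fewer cells of a type and less RNA per cell cannot be told apart.

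MiR-25-3p was the most abundant member and miR-93-3p the least, with a wide gap between them. Over all 18 libraries, miR-25-3p averaged 1319 ± 79.8 CPM (SD) and ranked 55 of the 373 miRNAs by level. MiR-93-5p followed at 455 ± 43.5 CPM and rank 95. MiR-106b-3p averaged 87.8 ± 10.6 CPM at rank 174 and miR-106b-5p 56.2 ± 7.41 CPM at rank 200. The minor arms miR-25-5p and miR-93-3p averaged 21.9 ± 5.07 CPM and 7.87 ± 2.25 CPM, at ranks 248 and 306. The ranges of neighbours in this order did not overlap, except for both arms of miR-106b, which spanned 70.0 to 110 CPM (3p) and 44.3 to 74.6 CPM (5p). Counts of different miRNAs also depend on how well each sequence is captured during ligation, so the order is one of reads.

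Within the cluster, miR-25-3p supplied 67.7 ± 2.21% of the counts of the 6 members (SD, n = 18) and miR-93-5p 23.4 ± 2.14%. MiR-106b-3p and miR-106b-5p gave 4.51 ± 0.51% and 2.88 ± 0.32%. MiR-25-5p and miR-93-3p gave 1.12 ± 0.24% and 0.403 ± 0.11%. Together the members summed to 1948 ± 89.1 CPM, or 0.195 ± 0.018% of all miRNA counts. Although the genes are neighbours on one strand, miR-93-5p had 8.14 ± 0.69 times the counts of miR-106b-5p in the same library. MiR-25-3p had 2.93 ± 0.39 times the counts of miR-93-5p.

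The 4 most abundant members varied less between rats than the median miRNA. The coefficient of variation of CPM over the 18 libraries was 6.05% for miR-25-3p and 9.57% for miR-93-5p, against a median of 16.1% over all 373 miRNAs. MiR-106b-3p and miR-106b-5p came to 12.1% and 13.2%. MiR-25-5p reached 23.2% and miR-93-3p 28.6%. Those scarce arms rested on 67 to 162 and 19 to 58 counts per library, while miR-25-3p rested on 4889 to 9363. Values under the median were not particular to the cluster. Among its tested seed relatives they were 9.83% for miR-92b-3p, 12.8% for miR-363-3p, 13.8% for miR-20a-5p and 14.1% for miR-92a-3p. MiR-20b-5p (16.7%) and miR-32-5p (21.8%) were above it. The median covers miRNAs of all levels and was not matched for abundance.

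**Figure D1:**
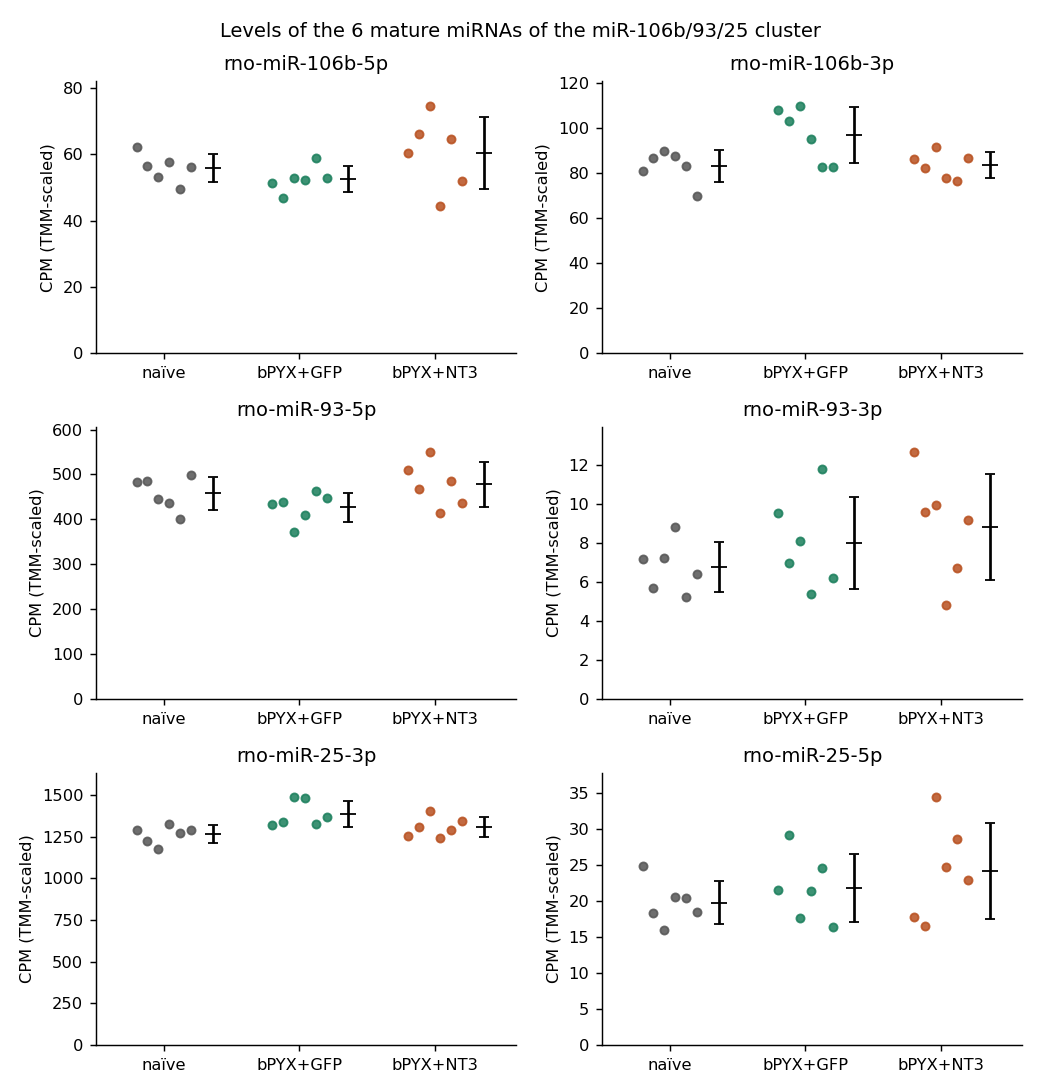
CPM after TMM scaling (y axis, from 0) of each member in each of the 18 libraries, by group (x axis); points are rats, and bars show the mean and SD of 6. Groups overlap in every panel, and the widest relative spread is in miR-93-3p and miR-25-5p. The means of miR-25-3p are 1263 CPM in naïve, 1387 CPM in bPYX+GFP and 1308 CPM in bPYX+NT3 rats.

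The comparison of bPYX+GFP with naïve rats asks what the injury, with a control vector, changed. No member passed the test after adjustment over all miRNAs. MiR-25-3p and miR-106b-3p had higher means in bPYX+GFP rats, each with an unadjusted p under 0.05, while miR-93-5p and miR-106b-5p had slightly lower means. The means of neighbours in 1 cluster thus differed in sign.

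For miR-25-3p, a repressor of cell cycle inhibitors in proliferating cells, the naïve libraries had a lowest value of 1178, a median of 1280 and a highest of 1328 CPM, and the bPYX+GFP libraries 1322, 1353 and 1486 CPM. All 6 bPYX+GFP libraries were above the naïve mean, but the groups overlapped narrowly. The log2 fold change was 0.13 ± 0.06 (SE; 95% interval 0.01 to 0.25; adjusted p = 0.219, edgeR). For miR-106b-3p, the naïve values were 70.0, 84.9 and 89.8 CPM and the bPYX+GFP values 82.5, 99.2 and 110 CPM. Of the bPYX+GFP libraries, 4 of 6 were above the naïve mean. The log2 fold change was 0.22 ± 0.10 (95% interval 0.01 to 0.43; adjusted p = 0.232).

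These 2 members were 2 of 6 with an unadjusted p under 0.05, both higher, where 21.2% of the 373 miRNAs passed that threshold and 10.7% did so as higher. At an adjusted p under 0.05, 9 miRNAs passed (2.41%), none of them a member. In 4.02% of miRNAs the groups did not overlap, again none of them a member. With all libraries kept, the count of 2 members was 0 by the likelihood ratio test, which the study used. Without bPYX+GFP replicate 3 or replicate 4 it was 0. Without naïve replicate 1, which the study's quality control left out, it was 1, namely miR-25-3p (log2 fold change 0.14 ± 0.07, adjusted p = 0.270). It was also 1 without naïve replicates 3, 5 or 6 or bPYX+GFP replicates 1 or 2, each left out alone, and with the replicate number as a block. Over all 20 alternatives the log2 fold change ran from 0.115 to 0.154 for miR-25-3p and from 0.177 to 0.264 for miR-106b-3p.

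MiR-93-5p and miR-106b-5p, the same-seed pair whose relatives repress the cell cycle inhibitor p21, had values near those of naïve rats. MiR-93-5p ran through 402, 464 and 499 CPM (lowest, median, highest) in naïve and 373, 436 and 462 CPM in bPYX+GFP rats. MiR-106b-5p ran through 49.5, 56.3 and 62.3 CPM in naïve and 46.8, 52.6 and 58.7 CPM in bPYX+GFP rats. Only 1 of 6 bPYX+GFP libraries was above the naïve mean for each. The log2 fold changes were -0.10 ± 0.07 (adjusted p = 0.474) and -0.09 ± 0.09 (adjusted p = 0.622), with 95% intervals of -0.26 to 0.06 and -0.27 to 0.09. For the minor arms miR-93-3p and miR-25-5p they were 0.25 ± 0.19 (adjusted p = 0.514) and 0.14 ± 0.15 (adjusted p = 0.657). The median over the 6 members was 0.14, beside 0.00 over all 373.

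The ratio of neighbours within a library needs no scaling between libraries. MiR-25-3p had 2.77 ± 0.27 times the counts of miR-93-5p in naïve, 3.27 ± 0.43 in bPYX+GFP rats and 2.76 ± 0.25 in bPYX+NT3 rats (SD, n = 6 each). The highest ratio, 3.99, was in a bPYX+GFP library. The ranges were 2.52 to 3.17, 2.87 to 3.99 and 2.45 to 3.07, so the groups overlapped. This ratio was not tested.

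Injured rats with and without NT3 were compared next, as bPYX+NT3 against bPYX+GFP, which asks what the NT3 vector changed. No member passed after adjustment, and neither did any other miRNA by edgeR or DESeq2 (0%, with 32 miRNAs or 8.58% at an unadjusted p under 0.05 by edgeR). The naïve and bPYX+GFP comparison shares the bPYX+GFP libraries with it, so opposite signs between them are not separate evidence. MiR-106b-3p had values of 76.4, 84.3 and 91.4 CPM (lowest, median, highest) in bPYX+NT3 rats. All 6 were below the bPYX+GFP mean of 96.8 CPM, though the groups overlapped. The log2 fold change was -0.20 ± 0.09 (95% interval -0.41 to -0.00264; adjusted p = 0.553). It was the only member with an unadjusted p under 0.05, 1 of 6 where 3.49% of all miRNAs were called lower. That call was lost with scaling by library size alone (adjusted p = 0.706), with a filter of more than 100 counts (adjusted p = 0.511) and by the likelihood ratio test (adjusted p = 0.664), while the fold change stayed between -0.26 and -0.16 over all 20 alternatives. The count was also 0 when any 1 of bPYX+GFP replicates 1, 2 and 3 or bPYX+NT3 replicates 1, 2, 5 and 6 was left out. Without bPYX+NT3 replicate 4 the call of miR-106b-3p was lost too (adjusted p = 0.403), and miR-106b-5p took its place. By group range, no miRNA had groups that did not overlap (0%).

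MiR-106b-5p and miR-93-5p had higher means with NT3 and were more spread. MiR-106b-5p ran through 44.3, 62.5 and 74.6 CPM and miR-93-5p through 414, 477 and 551 CPM in bPYX+NT3 rats. For both, the extremes were bPYX+NT3 replicates 4 (lowest) and 3 (highest), the libraries with the lowest and highest TMM factor. CPM is divided by this factor, so TMM raised the values of replicate 4 (factor 0.909) and lowered those of replicate 3 (1.14). Their raw counts were 174 and 352 for miR-106b-5p and 1626 and 2599 for miR-93-5p, in libraries of 4.32 and 4.15 M miRNA counts. The part of scaling in this spread was not tested. The log2 fold changes were 0.21 ± 0.12 (95% interval -0.05 to 0.48; adjusted p = 0.617) and 0.17 ± 0.10 (95% interval -0.04 to 0.37; adjusted p = 0.617). Without bPYX+NT3 replicate 4, miR-106b-5p came to 0.29 ± 0.11 (adjusted p = 0.226), and without replicate 3 to 0.11 ± 0.11 (adjusted p = 0.872). MiR-25-3p ran through 1244, 1301 and 1405 CPM, with a log2 fold change of -0.07 ± 0.06 (95% interval -0.21 to 0.06; adjusted p = 0.734). The minor arms miR-25-5p and miR-93-3p differed by 0.16 ± 0.20 (adjusted p = 0.849) and 0.14 ± 0.24 (adjusted p = 0.878). Over the alternatives these values ran from 0.00626 to 0.279 and from 0.0248 to 0.282.

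Against naïve rats, bPYX+NT3 rats had log2 fold changes between 0.01 and 0.38 for the 6 members, with a median of 0.09 against -0.01 over all miRNAs. The values closest to an effect were those of the minor arms. MiR-93-3p ran through 5.26, 6.79 and 8.83 CPM in naïve and 4.83, 9.39 and 12.7 CPM in bPYX+NT3 rats, a log2 fold change of 0.38 ± 0.21 (95% interval -0.06 to 0.82; adjusted p = 0.372). MiR-25-5p ran through 16.0, 19.4 and 24.9 CPM and 16.5, 23.8 and 34.3 CPM, a log2 fold change of 0.29 ± 0.17 (95% interval -0.07 to 0.65; adjusted p = 0.410). In both, 4 of 6 bPYX+NT3 libraries were above the naïve mean. Over the alternatives miR-93-3p ran from 0.30 to 0.52 and miR-25-5p from 0.16 to 0.41. Each had an unadjusted p under 0.05 in some alternatives and in none after adjustment. MiR-106b-5p and miR-93-5p came to 0.11 ± 0.12 (adjusted p = 0.710) and 0.06 ± 0.08 (adjusted p = 0.800).

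MiR-25-3p came to 0.05 ± 0.06 (95% interval -0.08 to 0.18; adjusted p = 0.758) and miR-106b-3p to 0.01 ± 0.09 (95% interval -0.18 to 0.20; adjusted p = 0.981). No member had an unadjusted p under 0.05, where 13.7% of all miRNAs did. By edgeR's quasi-likelihood test, no miRNA passed after adjustment (0%), with 51 below an unadjusted 0.05. DESeq2, edgeR's likelihood ratio test and the fit of all 3 groups called 1 each. Groups did not overlap in 1.34% of miRNAs, none of them a member.

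**Figure D2:**
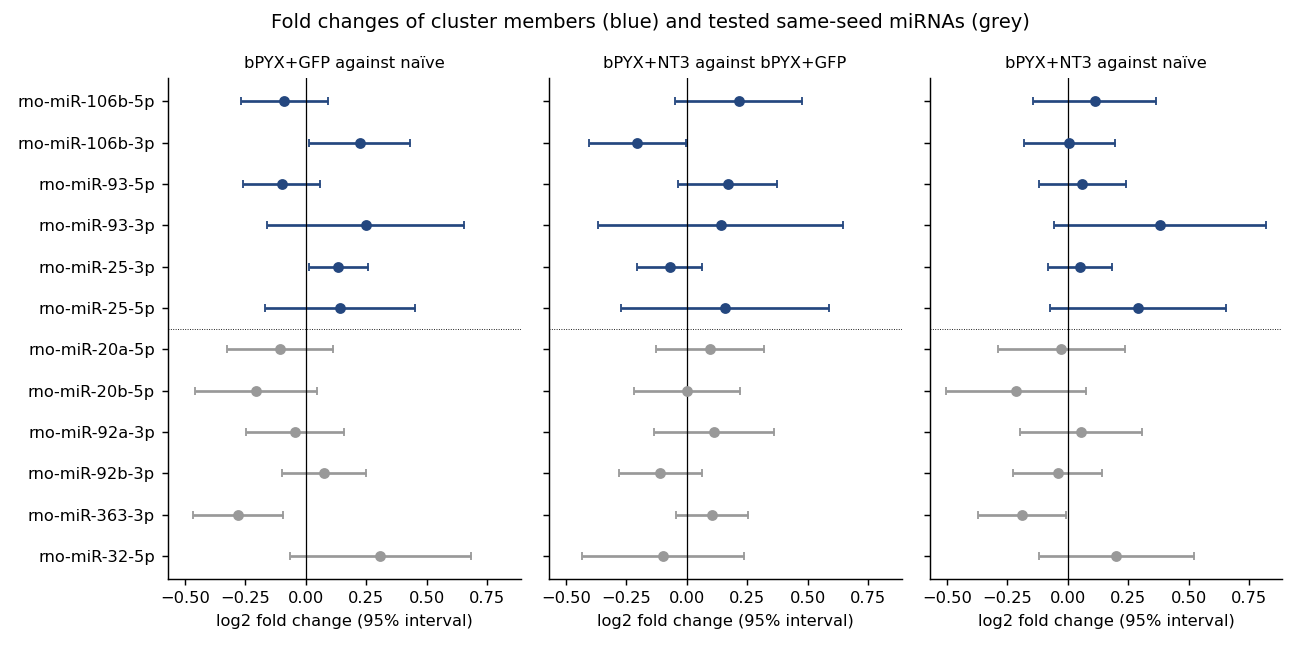
Log2 fold change with its 95% interval (x axis) of the 6 members (blue) and the 6 tested miRNAs that share a seed with them (grey), in the 3 comparisons of 6 against 6 rats. Most intervals cross 0, and those of miR-25-3p and miR-106b-3p in bPYX+GFP against naïve rats start at 0.01.

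Which arm of each precursor dominated differed between neighbours. MiR-93 gave mostly its 5p arm, with 61.6 ± 15.5 counts of 5p for each 3p count (SD, n = 18). MiR-25 gave mostly its 3p arm, with 63.0 ± 13.1 counts of 3p for each 5p count. MiR-106b was close to balanced, and its 3p arm, which is often taken as the passenger, had 1.59 ± 0.31 times the counts of its 5p arm, between 1.18 and 2.20 in every library. This arm ratio compares reads of the same precursor in the same library. The arms differ in sequence and so may differ in capture during ligation, which makes it a ratio of reads.

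For miR-106b, the log2 ratio of 5p to 3p counts was -0.57 ± 0.18 in naïve, -0.88 ± 0.26 in bPYX+GFP rats and -0.49 ± 0.24 in bPYX+NT3 rats (SD, n = 6 each). The lowest, median and highest values were -0.76, -0.61 and -0.32 in naïve, -1.14, -0.96 and -0.49 in bPYX+GFP, and -0.81, -0.42 and -0.24 in bPYX+NT3 rats. The 5p share was thus lowest in bPYX+GFP rats, with overlap between all groups. The difference was -0.31 for bPYX+GFP against naïve rats (two-sided exact permutation test over 924 splits, p = 0.0476, adjusted p = 0.214 over the 9 arm ratio tests) and 0.39 for bPYX+NT3 against bPYX+GFP rats (exact p = 0.0281, adjusted p = 0.214). All 6 bPYX+NT3 libraries were above the bPYX+GFP mean and 1 of 6 bPYX+GFP libraries was above the naïve mean. The ratio is built from the same counts as the fold changes of these 2 arms above, so it is not separate evidence. Neither difference held after adjustment, and both share the bPYX+GFP libraries. With single libraries left out, the exact p ran from 0.0152 to 0.0952 for the first and from 0.0152 to 0.0563 for the second. It was above 0.05 without naïve replicates 1, 2, 4 or 6 or bPYX+GFP replicates 1 to 4 in the first, and without bPYX+GFP replicates 1 to 3 or bPYX+NT3 replicates 2, 3 or 5 in the second. For bPYX+NT3 against naïve rats the difference was 0.09 (exact p = 0.494, adjusted p = 0.635). In miR-93 and miR-25 the 6 differences ran from -0.31 to 0.21, with adjusted p from 0.409 to 0.981.

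**Figure D3:**
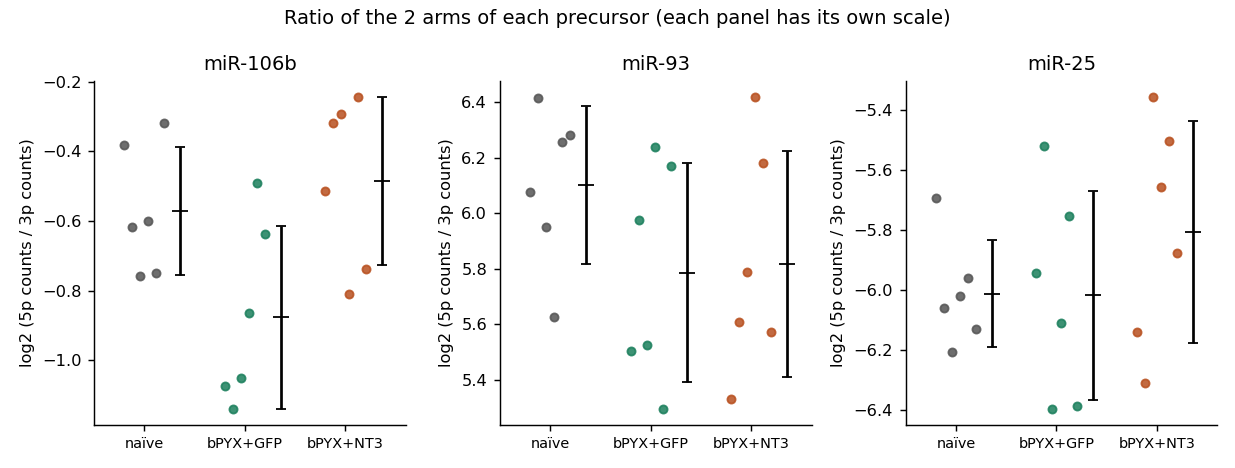
Log2 of 5p over 3p counts (y axis, own scale in each panel, not from 0) for each precursor in each library by group (x axis), with the mean and SD of 6 rats. The miR-106b values are below 0 in all libraries and lowest on average in bPYX+GFP rats (-0.88), with overlap between groups.

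Across rats, the same-seed neighbours miR-106b-5p and miR-93-5p varied together over all libraries. MiR-25-3p had pooled correlations of 0.09 and -0.30 with them after TMM scaling. Over the 18 libraries, Pearson's r of log2 (CPM + 0.5) for miR-106b-5p and miR-93-5p was 0.75 (permutation p = 0.00042, adjusted p = 0.00252 over 6 pairs) and Spearman's rho 0.75 (permutation p = 0.00058, adjusted p = 0.00348). Without the 2 libraries farthest from the median of miR-106b-5p, bPYX+NT3 replicates 3 and 4, r was 0.63. Within groups it was 0.70 in naïve, 0.17 in bPYX+GFP rats and 0.90 in bPYX+NT3 rats, so it did not hold within bPYX+GFP rats.

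MiR-25-3p had r = 0.09 with miR-106b-5p (permutation p = 0.732; rho = -0.03, p = 0.894) and r = -0.30 with miR-93-5p (permutation p = 0.221; rho = -0.26, p = 0.292). Without the 2 farthest libraries these were -0.24 and -0.34. Within groups, miR-106b-5p and miR-25-3p had r = 0.37 in naïve rats, 0.03 with the GFP vector and 0.62 with NT3. Within bPYX+GFP rats miR-93-5p and miR-25-3p had r = -0.86, where replicates 3 and 4 had the lowest miR-93-5p and the highest miR-25-3p. Within naïve and bPYX+NT3 rats r was -0.03 and 0.51. These relations depended on the scaling. With library size alone, which leaves differences in composition shared by many miRNAs in the values, r was 0.88 for miR-106b-5p with miR-93-5p, 0.64 for miR-106b-5p with miR-25-3p and 0.48 for miR-93-5p with miR-25-3p.

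The arms of each precursor were compared in the same way. Pearson's r was -0.23 for miR-106b-5p with miR-106b-3p (permutation p = 0.357; rho = -0.29, p = 0.244), 0.38 for miR-93-5p with miR-93-3p (permutation p = 0.119; rho = 0.36, p = 0.143) and 0.21 for miR-25-5p with miR-25-3p (permutation p = 0.409; rho = 0.20, p = 0.434). Without the 2 farthest libraries they were -0.56, 0.42 and 0.04. Within naïve, bPYX+GFP and bPYX+NT3 rats in turn, r was -0.15, -0.60 and 0.44 for the arms of miR-106b, 0.08, 0.30 and 0.66 for those of miR-93, and 0.69, -0.47 and 0.52 for those of miR-25. Adjusted p of r was at least 0.357 for each of the 5 pairs other than miR-106b-5p with miR-93-5p. These values too changed with the scaling. With library size alone, r was 0.61 for miR-93-5p with miR-93-3p and 0.60 for miR-25-5p with miR-25-3p, each with an adjusted permutation p of 0.0119, as for miR-106b-5p with miR-25-3p above, and it turned to 0.21 for miR-106b-5p with miR-106b-3p.

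**Figure D4:**
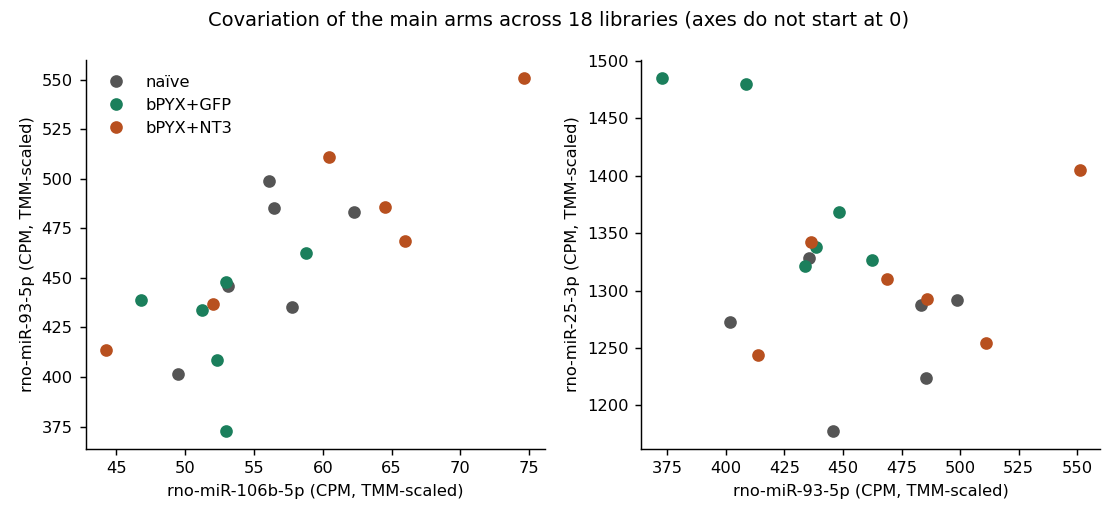
CPM after TMM scaling in the 18 libraries, coloured by group, for miR-106b-5p (x) against miR-93-5p (y) on the left and miR-93-5p (x) against miR-25-3p (y) on the right; axes do not start at 0. The left points rise together (r = 0.75) and the right ones do not (r = -0.30), with bPYX+GFP replicates 3 and 4 at the upper left.

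Outside the cluster, the miRNAs most like each main arm over the 18 libraries, of 367 compared, were found by Spearman's rho as a description. For miR-106b-5p they were rno-miR-324-5p (0.72), rno-miR-362-5p (0.70) and rno-miR-16-5p (0.69). For miR-93-5p they were rno-miR-138-5p (0.74), rno-miR-362-5p (0.71) and rno-miR-16-5p (0.69). Thus 2 of 3 names were common to both arms. For miR-25-3p they were rno-miR-101a-3p (0.74), rno-miR-665 (0.68) and rno-miR-496-3p (0.66), none of which was on the other lists. All these values share the same libraries and scaling factors.

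Relatives with the same seeds put the members into the pool that would read the same target sites. MiR-106b-5p and miR-93-5p together made up 57.5 ± 2.45% (SD, n = 18) of the counts of tested miRNAs with the seed AAAGUGC. The rest came from miR-20a-5p at 271 ± 37.3 CPM and miR-20b-5p at 106 ± 17.7 CPM. MiR-17-5p had 0 to 4 counts per library and was not tested. RefSeq gives its mature sequence for 2 precursor genes, and 31.4 ± 1.88% of all entries were reads of too low alignment quality, a class that holds reads fitting several places, so its count is uncertain. The same holds for miR-92a-3p, which also has 2 precursor genes.

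MiR-25-3p made up 27.7 ± 1.56% of the counts with the seed AUUGCAC, beside miR-92a-3p at 1570 ± 221 CPM, miR-363-3p at 1001 ± 128 CPM, miR-92b-3p at 805 ± 79.1 CPM and miR-32-5p at 71.1 ± 15.5 CPM. Its share was 26.3 ± 0.89% in naïve, 29.3 ± 0.96% in bPYX+GFP rats and 27.5 ± 1.17% in bPYX+NT3 rats (SD, n = 6 each). The ranges were 25.3 to 27.7%, 27.4 to 30.3% and 26.2 to 29.6%, so the groups overlapped, and the share was not tested. The share of miR-106b-5p and miR-93-5p in their pool was 56.6 ± 2.01%, 57.1 ± 2.52% and 59.0 ± 2.49% in the same order.

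The seed relatives had values on both sides of 0, and none passed after adjustment. In bPYX+GFP against naïve rats miR-363-3p had a log2 fold change of -0.28 ± 0.09 (unadjusted p under 0.05, adjusted p = 0.0894) with 0 of 6 libraries above the naïve mean, where miR-25-3p had 6 of 6. MiR-32-5p came to 0.31 ± 0.18 (adjusted p = 0.323), miR-92b-3p to 0.08 ± 0.08 (adjusted p = 0.660) and miR-92a-3p to -0.05 ± 0.10 (adjusted p = 0.878). MiR-20a-5p and miR-20b-5p came to -0.11 ± 0.10 (adjusted p = 0.622) and -0.21 ± 0.12 (adjusted p = 0.328). In bPYX+NT3 against bPYX+GFP rats the 6 relatives ran from -0.11 to 0.11, with no unadjusted p under 0.05.

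The paralogous miR-17/92 and miR-106a to miR-363 clusters, listed as 18 mature miRNAs of which 9 were tested, give a wider view. In bPYX+GFP against naïve rats all 9 tested had log2 fold changes below 0, where 183 of all 373 miRNAs did. The 9 ran from -0.65 to -0.05 with a median of -0.23, beside 0.14 for the members and 0.00 for all miRNAs. Among them miR-363-5p, miR-18a-5p, miR-17-1-3p and miR-92a-1-5p were scarce, with means of 3.37 to 5.01 CPM over the 18 libraries. None of the 9 passed after adjustment, and 3 had an unadjusted p under 0.05 as lower, where 10.5% of all miRNAs did. They were miR-20b-3p (-0.36 ± 0.11, adjusted p = 0.0900), miR-363-3p and miR-363-5p (-0.65 ± 0.24, adjusted p = 0.140). The same 3 were lower at that threshold in bPYX+NT3 against naïve rats, where 6.43% of all miRNAs were, and which shares the naïve libraries. There miR-363-5p came to -0.64 ± 0.20 (adjusted p = 0.191), miR-20b-3p to -0.32 ± 0.14 (adjusted p = 0.349) and miR-363-3p to -0.19 ± 0.09 (adjusted p = 0.349). Of the 9, 7 were below 0 there (median -0.19), beside 195 of all 373. In bPYX+NT3 against bPYX+GFP rats 7 of 9 were above 0 (median 0.10), beside 186 of all 373. The list did not include rno-miR-17-2-3p, which RefSeq places in the Mir106a gene. Its log2 fold change in bPYX+GFP against naïve rats was -0.29 ± 0.09 (adjusted p = 0.0812), with groups that did not overlap, as in 4.02% of all miRNAs. In bPYX+NT3 against naïve rats it was -0.07 ± 0.13 (adjusted p = 0.834), with 3 of 6 libraries above the naïve mean. The listed miRNAs of those clusters share precursors and are not independent of each other, and the difference between the cluster and its paralogs was not tested.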

How the data were processed

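Small RNA libraries of 18 rats (1 per rat) were analysed. The authors trimmed adapters, aligned reads with Bowtie2 to Rnor_5.0 and deposited raw counts per mature miRNA from HTSeq-count, with no normalization. The submitters' processing notes also name bcl2fastq 1.8.4. The release of the miRNA annotation is not given in the sources used here. The deposited table holds 753 miRNAs and 5 rows for reads assigned to none of them; these rows entered neither library sizes nor tests. Of 13.5 ± 1.75 M entries per library, 34.9 ± 1.68% were counted to a miRNA. Reads without molecular identifiers are not independent molecules, so a high count by itself speaks to counting error only. The SE and p-values of the fold changes also include the variation between rats of a group.

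Libraries were grouped by their labels, in which each is a separate rat. Each pair of groups was fitted with edgeR 4.0.16 (R 4.3.3, TMM, quasi-likelihood F test, 12 libraries) on miRNAs with more than 10 counts in at least 6 of 18 libraries, with Benjamini-Hochberg adjustment over 373 miRNAs and a threshold of 0.05. The study used a likelihood ratio test and left out naïve replicate 1; both were alternatives here, beside DESeq2 1.42.0, scaling by library size, other filters, a fit of all 3 groups, a replicate block and leaving out each library. Arm ratios were compared by exact permutation tests and correlations by 100000 permutations on log2 (CPM + 0.5). Within groups, the closest 2 libraries had a chi-square of 37.3 for each degree of freedom, so none counted as a duplicate. RefSeq sequences were matched by name for 688 of the 753 miRNAs.

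The members, the lists and the tests were chosen with earlier results of these data known. The miRNAs named are the 6 members, the measured miRNAs with their seeds and the 3 tested miRNAs most like each main arm by Spearman's rho. Others were named after their values were seen. They are the 3 paralog miRNAs with an unadjusted p under 0.05, miR-17-2-3p, miR-183-3p, miR-1b and cell type markers. Those markers had an unadjusted p under 0.05, were at or near 0 counts, were set beside such markers, or belong to red blood cells.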

Additional observations from a re-analysis of the deposited data

How the results depend on the processing

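No member had an adjusted p under 0.05 in any of the 20 alternatives of each comparison, and 354 of 357 member fold changes kept their direction. The 3 that reversed were miR-106b-3p in bPYX+NT3 against naïve rats, which ran from -0.0208 to 0.0505 with single libraries left out. In bPYX+GFP against naïve rats, the miRNAs with an adjusted p under 0.05 numbered 22 by DESeq2 and 3 to 20 with single libraries left out. The members with an unadjusted p under 0.05 numbered 0 by the likelihood ratio test and 0 to 2 with single libraries left out. In bPYX+NT3 against bPYX+GFP rats, miRNAs at an unadjusted p under 0.05 numbered 54 without a filter and 24 to 54 with single libraries left out. Members there numbered 0 with library size alone, with a filter of more than 100 counts and by the likelihood ratio test, and 0 to 1 with single libraries left out. In bPYX+NT3 against naïve rats, miRNAs with an adjusted p under 0.05 numbered 1 by the likelihood ratio test, by DESeq2 and in the fit of all 3 groups, and 0 to 4 with single libraries left out. Those at an unadjusted p under 0.05 numbered 75 without a filter and 32 to 68 with single libraries left out. Members at that threshold numbered 0 to 1 with single libraries left out. The single member, miR-93-3p or miR-25-5p, appeared without naïve replicate 4 or bPYX+NT3 replicates 1, 2, 4 or 5. Scaling moved the median of all miRNAs by at most 0.049 (log2).

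With library size alone in place of TMM, r was 0.64 for miR-106b-5p with miR-25-3p, 0.61 for miR-93-5p with miR-93-3p and 0.60 for miR-25-5p with miR-25-3p, all past the threshold. It turned to 0.48 for miR-93-5p with miR-25-3p and to 0.21 for miR-106b-5p with miR-106b-3p. The cause was not tested. The arm ratio difference of miR-25 (bPYX+GFP against naïve) ran from -0.106 to 0.0700 and that of miR-93 (bPYX+NT3 against bPYX+GFP) from -0.0891 to 0.129 with single libraries left out, changing sign in both.

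Replicate numbers did not pair the rats. Correlations of same-numbered libraries ran from -0.38 to 0.37, and 2 of 6 correlated best with their own number in each comparison. With the number as a replicate block, members at an unadjusted p under 0.05 numbered 1 in bPYX+GFP against naïve rats, 1 in bPYX+NT3 against bPYX+GFP and 0 in bPYX+NT3 against naïve rats, and adjusted calls over all miRNAs numbered 7, 0 and 0. The filter of more than 100 counts gave no value for miR-93-3p. Depth limits miR-93-3p most, at 19 to 58 counts per library.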
